A study of Mus musculus with 24 samples.

Results

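Nodal, Gdf3, Tdgf1, Acvr2b, Pcsk6, Lefty1, Lefty2, Smad7 and Skil are 9 genes of Nodal and Activin signalling, picked by gene symbol from both deposited expression tables of a mouse stem cell study. They are 9 of the 23095 genes listed for J1 cells and 9 of the 25476 listed for the tet-off lines, and all 9 were tested in both tables. Nodal and the Activins are secreted ligands of the TGF-beta family that bind paired type I and type II receptors, which activate the transcription factors SMAD2 and SMAD3. Nodal is made as a precursor that convertases cleave and it needs a co-receptor at the cell surface, while the Lefty proteins block it outside the cell and further inhibitors limit the signal inside. The pathway keeps the epiblast of the early embryo from differentiating too soon, forms mesoderm and endoderm and sets left against right, and Nodal, Lefty1, Lefty2 and Smad7 are themselves among the genes it switches on.

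Poly(A) RNA was sequenced from 24 libraries in 12 groups, with 2 replicates in each group. J1, a wild-type (WT) mouse embryonic stem cell (ESC) line, was sampled as ESCs in serum medium with LIF, CHIR99021 and PD0325901 (the 2i pair), as D-EPSCs in N2B27 medium with LIF, CHIR99021, dimethindene maleate and minocycline hydrochloride, and as L-EPSCs in serum replacement medium with LIF, CHIR99021, PD0325901, A-419259, XAV939, JNK inhibitor VIII and SB203580. EPSCs (expanded potential stem cells) are ESC derivatives made by changing the medium, and the sample titles write Deng and Liu where the prefixes D and L are used here. In the other 3 lines, each a single line labelled as a tet-off knock-in, the endogenous gene is deleted and a transgene that doxycycline (Dox) shuts off supplies the factor: Oct4 in ZHBTc4 (Oct4cKO), Sox2 in 2TS22C (Sox2cKO) and Nanog in NgcKO (NanogcKO). Each was sampled as ESCs, as L-EPSCs without Dox and as L-EPSCs with Dox. The labels give neither the dose nor the duration of Dox for the RNA samples, and they name both feeder cells and gelatin as culture surfaces without assigning them to samples. The study's methods add that EPSCs of both kinds spent several passages without feeders ahead of sequencing, and they assign no surface to the ESC libraries. Reads on genes numbered between 11612919 and 15069899 per library in J1 cells and between 10807631 and 14798984 in the tet-off lines.

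A value is a normalized count, the number of reads on a gene divided by the size factor of its library, and 1 read was worth between 0.818 and 1.15 normalized counts. The J1 and tet-off tables were normalized separately, so groups were compared only within a table. The limma test was run on log2(normalized count + 1) for all genes of a table with more than 1 read in all, and p-values were adjusted over all of these genes. A gene was called, and is said to have risen or fallen, at an adjusted p under 0.05 when its log2 fold change between cell states passed 0.6, up or down, or for Dox passed 1. The added 1 makes log2 fold changes of genes with few reads too small. Whether the replicates are independent cultures is not stated, so the p-values measure only the spread between these libraries; with 2 against 2, an exact two-sided permutation test of any gene alone could not go below 0.333. Intervals and lower bounds cover counting error only.

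The factors that Dox removes were measured first. Pou5f1, the gene of Oct4, had 6420.1 and 6316 normalized counts in Oct4cKO L-EPSCs without Dox and 162 and 184 with Dox. Sox2 had 4966 and 4701 in Sox2cKO L-EPSCs without Dox and 47.0 and 53.1 with Dox. Nanog had 9119 and 8847 in NanogcKO L-EPSCs without Dox and 3166 and 3112 with Dox. Each targeted gene was thus lower in both Dox libraries than in both untreated ones, with log2 fold changes of −5.19 for Pou5f1, −6.57 for Sox2 and −1.52 for Nanog, so Nanog transcripts were reduced and far from gone. This is a statement about RNA only: by western blot, the study reports that Nanog protein was lost with Dox in NanogcKO L-EPSCs. The factors also moved together: with Dox in Oct4cKO cells the log2 fold change was −4.48 for Sox2 and −3.41 for Nanog. In Sox2cKO cells the change was −3.48 for Nanog and −1.39 for Pou5f1. In NanogcKO cells neither was called, with −0.44 for Pou5f1 and −0.31 for Sox2.

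Among the tet-off lines grown as ESCs, Pou5f1 had 8943 and 9063 normalized counts in Oct4cKO, 10509.6 and 10293 in Sox2cKO and 14947 and 15077 in NanogcKO cells. In J1 cells it had 11628 and 11833 in ESCs, 10425 and 10325 in D-EPSCs and 11416 and 11643 in L-EPSCs and was not called between any of them. Sox2 was not called between the J1 states either, with 4753 and 4837, 5995 and 5732 and 5388 and 5147 in the same order. Nanog was the factor that differed, with 10085 and 10129.7 in J1 ESCs, 2787 and 2801 in D-EPSCs and 4615 and 4363 in L-EPSCs. It fell in both kinds of EPSC, by log2 fold changes of −1.85 and −1.17, which share the ESC libraries.

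The labelled cell types were checked against marker genes. All 9 listed pluripotency markers were detected in every group, and their summed normalized counts were 70804 and 71200.4 in J1 ESCs, 42760.0 and 42348 in D-EPSCs and 51238 and 50461 in L-EPSCs. Markers of other cells were abundant in the J1 libraries. The 10 fibroblast markers summed to 90265 and 92475 normalized counts in J1 ESCs, 56243 and 56557 in D-EPSCs and 18750.0 and 19354 in L-EPSCs, with none of them at 0. Col1a1 was the most abundant per kilobase, with 6790.3 and 7011, 2994 and 3051 and 1109 and 1176 on that scale. In the tet-off table, which does not list Dcn, the other 9 fibroblast markers summed to between 226 and 639 normalized counts. Of these 10 genes, D-EPSCs had 3 called higher and 3 called lower against ESCs, and L-EPSCs had 8 called lower against ESCs and all 10 called lower against D-EPSCs. The 8 macrophage markers summed to 2579 and 2579 in J1 ESCs, 20139 and 20249 in D-EPSCs and 15996 and 16103 in L-EPSCs, none of them at 0, with Lyz2 the most abundant per kilobase, at 826 and 813, 11845 and 12035 and 9915 and 9874 on that scale. All 8 were called higher in D-EPSCs than in ESCs and 6 in L-EPSCs than in ESCs, and between the EPSCs 1 was higher and 4 lower in L-EPSCs. The methods describe the EPSCs as grown without feeders before sequencing, and the source of the fibroblast and macrophage transcripts was not tested. In bulk RNA, fewer cells of a type and less RNA per cell cannot be told apart.

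The other marker lists moved between the J1 states too. Of the 9 pluripotency markers 1 was called higher and 5 lower in D-EPSCs against ESCs, 1 higher and 3 lower in L-EPSCs against ESCs, and 3 were higher in L-EPSCs when the EPSCs were compared. The 8 primitive endoderm markers summed to 2076 and 2008 in ESCs, 3649.5 and 3719 in D-EPSCs and 3157 and 3166 in L-EPSCs, and without Col4a1 to 203 and 203, 707 and 715 and 755 and 769. Against ESCs 3 of them were called higher in D-EPSCs and 6 in L-EPSCs, and between the EPSCs 4 were higher in the L-EPSC libraries. The 9 trophoblast markers summed to 1519 and 1503 in ESCs, 195 and 184 in D-EPSCs and 789 and 817 in L-EPSCs. Against ESCs 5 were called lower in D-EPSCs, while in L-EPSCs 3 were higher and 3 lower, and between the EPSCs 6 were higher and 1 lower in L-EPSCs. The 6 markers of primitive streak and mesoderm summed to 422 and 437 in ESCs, 84.8 and 90.1 in D-EPSCs and 602 and 588 in L-EPSCs. Against ESCs 4 were called lower in D-EPSCs, and 2 higher and 2 lower in L-EPSCs, while the direct comparison had 2 higher on the L-EPSC side. In both libraries of a group Sox17 and Mesp1 were at 0 in D-EPSCs, Foxq1 in ESCs and Elf5 in L-EPSCs. The part of any of these cell types in the J1 differences of the pathway genes was not tested.

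Levels of different genes were compared only per kilobase of exon. In J1 ESCs, Tdgf1 had 3429 and 3401 normalized counts per kilobase, followed by Lefty2 with 1484 and 1559, Gdf3 with 657 and 655 and Nodal with 495 and 522. Pcsk6 with 324 and 327 and Smad7 with 328 and 323 overlapped and could not be ordered. Lower still were Lefty1 with 168 and 175, Acvr2b with 118 and 95.2 and Skil with 94.6 and 81.1. Tdgf1 was the most abundant member per kilobase in every library except the 2 of Dox-treated Oct4cKO L-EPSCs, where it had 63.4 and 63.4 and Smad7 had 161 and 172. The range over all tet-off libraries was wide for some members and narrow for others. Tdgf1 ran from 122 to 11957 normalized counts, Nodal from 28.9 to 1306 and Lefty2 from 0 to 462, whereas Acvr2b stayed between 204 and 503.

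**Figure D1:**
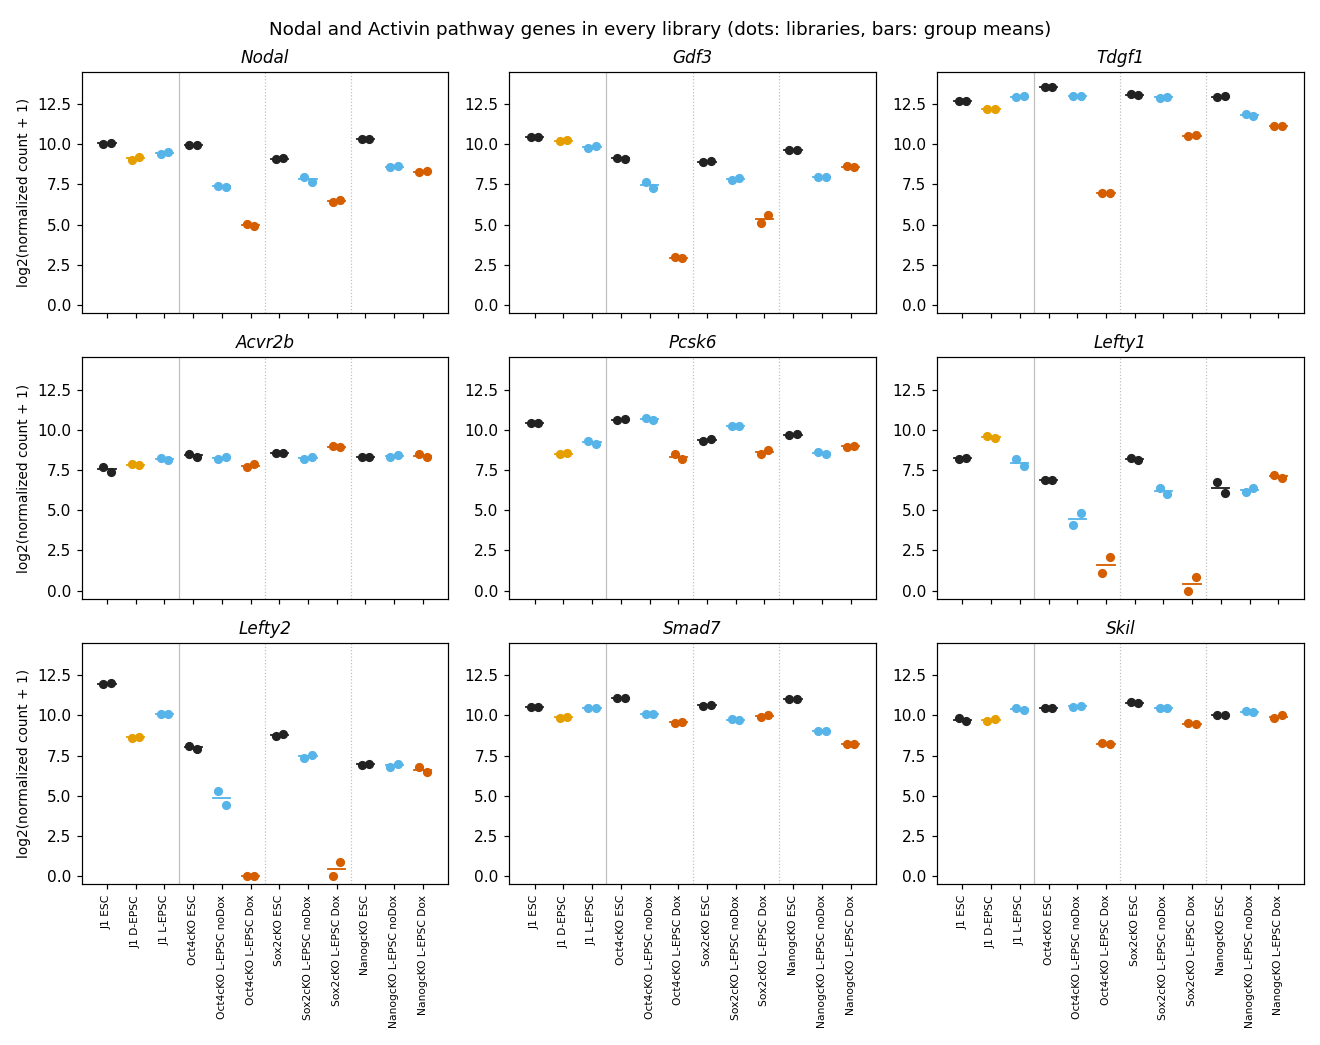
Each panel plots 1 gene as log2(normalized count + 1) in every library, with dots for the 2 libraries of a group and bars for their mean; the solid line separates J1 cells from the tet-off lines, whose values were normalized separately. Lefty2 lies at 0 in both libraries of Oct4cKO L-EPSCs with Dox, and Tdgf1 drops to 122 normalized counts in the same 2 libraries.

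D-EPSCs of the J1 line were set against ESCs to ask how the pathway genes differ under the D-EPSC medium. The change was uneven: antagonists moved in opposite directions, and the ligand gene Nodal and the convertase gene fell. Of the 9 genes, 1 was called higher and 4 lower, while 10.8% of all genes tested were called higher and 9.98% lower, or 12.5% and 12.4% of the 11617 genes averaging 50 normalized counts or more. The median log2 fold change was −0.49 for the 9 genes and 0.01 for all genes tested.

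Nodal, the gene of the pathway's main ligand in the early embryo, had 1037 and 1093 normalized counts in ESCs and 519.8 and 590.3 in D-EPSCs. Both D-EPSC libraries were below both ESC libraries, and limma gave a log2 fold change of −0.94 (SE 0.08, adjusted p 4.0e-05). Gdf3, the gene of a related ligand that also signals through Tdgf1's protein, had 1396 and 1392 in ESCs and 1187 and 1216 in D-EPSCs, a log2 fold change of −0.21 that was not called. Tdgf1 encodes Cripto, the co-receptor for Nodal, and had 6601 and 6547 in ESCs and 4683 and 4671 in D-EPSCs. Its libraries did not overlap either, but at −0.49 the change was under the threshold. Pcsk6 encodes the convertase PACE4, which can cleave the Nodal precursor, and had 1363 and 1378 in ESCs and 353 and 371 in D-EPSCs. Its log2 fold change was −1.92 (SE 0.07, adjusted p 4.9e-07).

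The pair of Lefty genes, whose proteins bind Nodal and its co-receptor and stop signalling, went apart. Lefty2 had 3875 and 4071 normalized counts in ESCs and 391 and 398 in D-EPSCs. Its mean fell 10.1-fold, a log2 fold change of −3.33 (SE 0.04, adjusted p 7.8e-09). Lefty1 had 295 and 308 in ESCs and 769 and 708 in D-EPSCs, so both D-EPSC libraries were above both ESC libraries. It was the only 1 of the 9 genes to rise there, at 1.29 (SE 0.13, adjusted p 1.1e-04). In ESCs Lefty2 exceeded Lefty1 per kilobase, with 1484 and 1559 against 168 and 175, and in D-EPSCs the order was turned around, with 149.8 and 153 against 437 and 403. Smad7, which encodes an inhibitor that keeps receptors from activating SMAD2 and SMAD3, had 1481 and 1461 in ESCs and 911 and 959 in D-EPSCs, a log2 fold change of −0.65 (SE 0.04, adjusted p 1.4e-05). Skil, the gene of the SMAD co-repressor SnoN, and Acvr2b, the gene of a type II activin receptor, were not called, at −0.03 and 0.29.

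L-EPSCs of the J1 line were set against the same ESCs, so the 2 comparisons share their ESC libraries. Of the 9 genes, 2 were called higher and 4 lower, beside 8.8% and 11.5% of all genes tested and 10.7% and 14.05% of those averaging 50 or more. The median log2 fold change was −0.27 for the 9 genes and 0.00 for all genes. Nodal had 663 and 719 normalized counts in L-EPSCs, below both ESC libraries, with a log2 fold change of −0.62 (SE 0.08, adjusted p 3.7e-04). Gdf3 had 874 and 946, again below both ESC libraries, and a log2 fold change of −0.62 (SE 0.05, adjusted p 4.0e-05). Both lie close to the threshold: without ESC replicate 2 the value for Nodal was −0.59, without L-EPSC replicate 1 the values were −0.56 for Nodal and −0.56 for Gdf3, and median centring gave −0.57 and −0.56. Tdgf1 had 7888 and 8068, above the ESC libraries, with a log2 fold change of 0.28 that was not called.

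The receptor and a co-repressor rose in L-EPSCs. Acvr2b had 208 and 167 normalized counts in ESCs and 301 and 282 in L-EPSCs, a log2 fold change of 0.64 (SE 0.12, adjusted p 0.00389). Skil went from 917 and 787 to 1383 and 1294, a log2 fold change of 0.65 (SE 0.08, adjusted p 3.5e-04). These calls also rest on few libraries. Without ESC replicate 2, Skil had 0.54 and Acvr2b 0.49, below the threshold. With the 2 groups fitted alone in limma, Acvr2b was not called (adjusted p 0.0512). Acvr2b was not called without L-EPSC replicate 1 (adjusted p 0.0866), nor without L-EPSC replicate 2 (adjusted p 0.065). The count of called members was 3 in place of 6 without ESC replicate 2 and 3 without L-EPSC replicate 1.

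Pcsk6 and Lefty2 fell by more. Pcsk6 had 631 and 565 normalized counts in L-EPSCs, a log2 fold change of −1.20 (SE 0.07, adjusted p 5.5e-06) against ESCs. Lefty2 had 1076 and 1062, so both libraries lay between those of D-EPSCs and ESCs, with a log2 fold change of −1.89 (SE 0.04, adjusted p 8.7e-08). Lefty1 had 286 and 217, below the ESC libraries, and was not called at −0.27 (SE 0.13, adjusted p 0.127). Smad7 had 1411 and 1381 and a log2 fold change of −0.08, also not called.

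The direct comparison of the EPSCs, which shares its libraries with both comparisons above, gave 4 members called higher in L-EPSCs and 1 called higher in D-EPSCs, beside 4.8% and 8.58% of all genes tested and 6.07% and 10.96% of those averaging 50 or more. The direction is that of the libraries as labelled. The median log2 fold change was 0.58 for the 9 genes and 0.00 for all genes. Lefty2 was higher in L-EPSCs by 1.44 (SE 0.04, adjusted p 6.2e-07) and Lefty1 was lower by −1.56 (SE 0.13, adjusted p 7.1e-05). Tdgf1 was higher by 0.77 (SE 0.02, adjusted p 5.9e-07), Pcsk6 by 0.72 (SE 0.07, adjusted p 1.5e-04) and Skil by 0.69 (SE 0.08, adjusted p 4.4e-04). The call of Skil was lost without D-EPSC replicate 1 (adjusted p 0.0612) and without L-EPSC replicate 1 (adjusted p 0.0534). Smad7, at 0.58, was just under the threshold and passed it without D-EPSC replicate 2, at 0.62, and with median centring, at 0.61. Nodal, Gdf3 and Acvr2b were not called, at 0.32, −0.40 and 0.35.

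A list of 46 other genes of Nodal, Activin and TGF-beta signalling, of which 43 were tested in J1 cells and 44 in the tet-off lines, gives the surroundings of the 9. Gdf1 and Cer1 are not listed in either table, and Acvr1c had too few reads to be tested in J1 cells. In J1 D-EPSCs against ESCs, 5 of 43 were called higher and 11 lower, beside 10.8% and 9.98% of all genes tested, and the 43 had a median log2 fold change of −0.26. Among those with the largest changes, Tgfbi, a gene that TGF-beta induces, rose by 1.66, the co-receptor gene Tgfbr3 by 1.19 and the ligand gene Tgfb1 by 1.06. The ligand gene Tgfb2 changed by −2.20 and Eomes, a target of Nodal in the embryo, by −2.18. Markers of other cell types moved between the same J1 states, as given above, and their part in these changes was not tested.

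In J1 L-EPSCs against ESCs, 3 of 43 were called higher and 15 lower, beside 8.8% and 11.5% of all genes, with a median of −0.39. Eomes changed in the opposite direction from D-EPSCs: it had 146 and 124 normalized counts in ESCs, 31.7 and 26.4 in D-EPSCs and 453 and 446 in L-EPSCs. The libraries of the 3 states did not overlap, and its log2 fold change was 1.73 (SE 0.15, adjusted p 6.7e-05) for L-EPSCs against ESCs. Tgfb1 rose by 1.16, while Tgfb2 changed by −2.77, Tgfb3 by −1.91 and Pmepa1, an inhibitor gene that the pathway induces, by −1.38. Between the EPSCs, 5 of 43 were higher and 7 lower in L-EPSCs, beside 4.8% and 8.58% of all genes, with a median of −0.07. That count of 12 was 6 without D-EPSC replicate 2 and 6 without L-EPSC replicate 2. Eomes was higher by 3.91 and the Activin subunit gene Inhba by 0.92, whereas Tgfbi had −2.45, Tgfbr3 −1.69 and Tgfbr2 −1.24.

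The tet-off lines give the change from ESCs to L-EPSCs in 3 further lines, with the transgene on. Fibroblast markers were low there, as given above, and of the macrophage markers Cd68 carried most of sums between 232 and 789 normalized counts. In every line most of the 9 genes were lower in L-EPSCs, with median log2 fold changes of −1.02 in Oct4cKO, −0.89 in Sox2cKO and −1.11 in NanogcKO cells, against 0.00 for all genes in each. In Oct4cKO cells 0 of the 9 genes were called higher and 5 lower, beside 13% and 15.4% of all genes tested. In Sox2cKO cells 1 was called higher and 5 lower, beside 7.99% and 11.6%. In NanogcKO cells 0 were called higher and 5 lower, beside 12.2% and 14.7%. Among the 11363 genes averaging 50 normalized counts or more, the shares called higher and lower were 20.2% and 19.4% in Oct4cKO, 11.6% and 14.2% in Sox2cKO and 19.2% and 18.3% in NanogcKO cells. The count of 0 higher in limma stood beside 0 in edgeR and 0 in DESeq2 in both lines, and at an unadjusted p under 0.05 limma gave 1 gene higher in each of them, Skil, at 0.12 and 0.22.

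Markers of other cell types differed between ESCs and L-EPSCs of these lines as well. The 8 primitive endoderm markers, of which Col4a1 was the most abundant per kilobase, summed to 3059.5 and 3209 normalized counts in Oct4cKO ESCs and 13606 and 13793 in L-EPSCs. The sums were 2602 and 2654 and 7776 and 7499 in Sox2cKO and 798 and 721 and 1416 and 1412 in NanogcKO cells. Most of each sum was Col4a1: without it, the other 7 went from 191 and 185 to 1136 and 1057 in Oct4cKO, from 403 and 434 to 580.1 and 504 in Sox2cKO and from 236 and 242 to 318 and 328 in NanogcKO cells. The median log2 fold changes of the 8 were 1.33, −0.51 and 0.95. Called higher were 4 in Oct4cKO, 3 in Sox2cKO and 4 in NanogcKO L-EPSCs, and called lower 3 in Sox2cKO and 2 in NanogcKO L-EPSCs. The 9 trophoblast markers went from sums of 1829.8 and 1711 to 4503 and 4388 in Oct4cKO cells, where 5 were called higher. In Sox2cKO cells they went from 5669.7 and 5634 to 1921 and 1947, with 4 called lower, and in NanogcKO cells from 599 and 584 to 624 and 592, with 4 higher and 1 lower. Of the 9 pluripotency markers 5, 2 and 6 were called lower in Oct4cKO, Sox2cKO and NanogcKO L-EPSCs. The 6 markers of primitive streak and mesoderm went from sums of 210.2 and 203 to 240.5 and 234 in Oct4cKO, from 148 and 169 to 202 and 198 in Sox2cKO and from 214 and 217 to 177 and 196 in NanogcKO cells. In each line 1 was called higher, and 1 was lower in Sox2cKO and 2 in NanogcKO L-EPSCs. The part of such cells in the changes of the 9 genes was not tested.

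Both ligand genes fell in all 3 lines. Nodal had 1005 and 987 normalized counts in Oct4cKO ESCs and 167 and 164 in L-EPSCs, a log2 fold change of −2.58 (SE 0.10, adjusted p 2.4e-12). In Sox2cKO cells it went from 535 and 565 to 252 and 203, a log2 fold change of −1.28 (SE 0.10, adjusted p 2.7e-08). In NanogcKO cells it went from 1284 and 1306 to 379 and 399.7, a log2 fold change of −1.73 (SE 0.10, adjusted p 3.4e-10). In none of the 3 lines did the L-EPSC libraries overlap the ESC libraries, and in J1 cells the same change was −0.62. The Nodal change differed between lines by −1.30 (SE 0.14, adjusted p 4.3e-06) for Oct4cKO minus Sox2cKO. Gdf3 went from 565 and 544 to 199.7 and 155 in Oct4cKO cells, a log2 fold change of −1.65 (SE 0.14, adjusted p 6.8e-08). It went from 469 and 486 to 215 and 243 in Sox2cKO cells, a log2 fold change of −1.06 (SE 0.14, adjusted p 1.9e-05). In NanogcKO cells it went from 813 and 814 to 244 and 252, a log2 fold change of −1.71 (SE 0.14, adjusted p 4.8e-08). J1 L-EPSCs differed from their ESCs by −0.62 in this gene.

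Of the co-receptor, receptor and convertase genes, only Pcsk6 had a change that differed between lines beyond 1. Tdgf1 fell in NanogcKO cells, from 7841 and 8101 to 3700.3 and 3531 normalized counts, a log2 fold change of −1.14 (SE 0.03, adjusted p 3.7e-14). In Oct4cKO cells it went from 11957 and 11897 to 8209 and 8041, and at −0.55 it was not called, although median centring gave −0.61. In Sox2cKO cells the change was −0.18, also not called. Acvr2b was called in none of the lines, with −0.15, −0.33 and 0.07 in Oct4cKO, Sox2cKO and NanogcKO cells. Pcsk6 moved in opposite directions in a pair of lines: in Sox2cKO cells it rose from 636 and 676 to 1230.5 and 1182, a log2 fold change of 0.88 (SE 0.09, adjusted p 4.9e-07). In NanogcKO cells it fell from 802 and 845 to 392 and 368, a log2 fold change of −1.11 (SE 0.09, adjusted p 1.6e-08). Its Oct4cKO libraries overlapped, at 1551 and 1632 for ESCs against 1666 and 1586 for L-EPSCs. The difference between the Sox2cKO and NanogcKO changes, tested as an interaction term, was 1.99 (SE 0.12, adjusted p 7.2e-09).

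The Lefty genes fell in Oct4cKO and Sox2cKO cells and not in NanogcKO cells. Lefty1 had 119 and 118 normalized counts in Oct4cKO ESCs and 16.0 and 26.9 in L-EPSCs, a log2 fold change of −2.46 (SE 0.38, adjusted p 4.2e-05). In Sox2cKO cells it had 304 and 284 and 81.0 and 63.8, a log2 fold change of −2.01 (SE 0.38, adjusted p 4.2e-04). The NanogcKO libraries overlapped, at 107 and 66.1 for ESCs against 70.3 and 82.6 for L-EPSCs. Lefty2 had 275 and 244 in Oct4cKO ESCs and 39.0 and 20.7 in L-EPSCs, a log2 fold change of −3.14 (SE 0.30, adjusted p 2.3e-07). In Sox2cKO cells it had 428 and 462 and 165 and 182, a log2 fold change of −1.36 (SE 0.30, adjusted p 0.00199), which was not called with a pseudocount of 0.1 (adjusted p 0.143). The NanogcKO libraries overlapped again, with 120.2 and 124 and 112 and 127. As a difference between lines, Oct4cKO minus NanogcKO was −2.32 (SE 0.53, adjusted p 0.00369) for Lefty1 and −3.11 (SE 0.43, adjusted p 4.2e-05) for Lefty2, of which the first was not called with a pseudocount of 0.1 (adjusted p 0.119). Sox2cKO minus NanogcKO was −1.87 (SE 0.53, adjusted p 0.0154) for Lefty1 and −1.32 (SE 0.43, adjusted p 0.0332) for Lefty2. Neither was stable, and with a pseudocount of 0.1 neither was called (adjusted p 0.226 for Lefty1 and 0.379 for Lefty2). That of Lefty2 lost its call without any 1 of the 8 libraries behind it (−1.23 to −1.41, adjusted p 0.061 to 0.105). That of Lefty1 lost it without Sox2cKO ESC replicate 1 or 2, Sox2cKO L-EPSC replicate 2, NanogcKO ESC replicate 2 or NanogcKO L-EPSC replicate 2 (−1.53 to −1.92, adjusted p 0.0529 to 0.0903).

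Smad7 fell in all 3 lines. It had 2171 and 2204 normalized counts in Oct4cKO ESCs and 1075 and 1083 in L-EPSCs, a log2 fold change of −1.02 (SE 0.05, adjusted p 3.4e-11). In Sox2cKO cells it had 1557 and 1575 and 863 and 827, a log2 fold change of −0.89 (SE 0.05, adjusted p 4.2e-10). NanogcKO cells went from 2034 and 2094 to 523 and 532, a log2 fold change of −1.97 (SE 0.05, adjusted p 1.4e-14). In J1 cells the same change was −0.08 and was not called. Skil was called in none of the 3 lines, at 0.12 in Oct4cKO, −0.33 in Sox2cKO and 0.22 in NanogcKO cells.

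Among the other pathway genes, the change from ESCs to L-EPSCs had 12 of 44 called higher and 4 lower for Oct4cKO, 6 higher and 6 lower for Sox2cKO, and 8 higher and 10 lower for NanogcKO cells. Of all genes, 13% and 15.4%, 7.99% and 11.6%, and 12.2% and 14.7% were called higher and lower in these lines. The counts depend on the fit: with the 2 groups alone, 7 in place of 12 were called in Sox2cKO and 11 in place of 18 in NanogcKO cells, where a threshold of 1 left 9. For the list, median log2 fold changes were 0.20, 0.04 and −0.06. In each line Inhbb, which encodes a subunit of Activin B, Tgfb1 and the co-repressor gene Tgif1 were the 3 lower genes with the largest changes among those averaging 50 normalized counts or more. Inhbb had 889 and 909 in Oct4cKO ESCs and 52.4 and 44.0 in L-EPSCs, a log2 fold change of −4.20 (SE 0.20, adjusted p 4.1e-11). Its log2 fold change was −2.14 in Sox2cKO and −4.12 in NanogcKO cells. Fstl3, the gene of a secreted protein that binds Activins, was the higher gene with the largest change in each line under the same limit of 50. It had 82.6 and 71.5 in Oct4cKO ESCs and 1199 and 1249 in L-EPSCs, and its log2 fold changes were 3.97 in Oct4cKO, 2.20 in Sox2cKO and 2.54 in NanogcKO cells. In Oct4cKO cells Ccn2, a gene that TGF-beta induces, rose by 2.49 and Tgfbr3 by 1.15. Tgfbi rose by 1.18 in Sox2cKO and 1.10 in NanogcKO cells and was also called higher in Oct4cKO cells. Smad3 rose by 0.74 in Sox2cKO cells and was called higher in Oct4cKO cells too.

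Dox was used in L-EPSCs to shut off the transgene, which left Nanog transcripts reduced rather than absent, while the study reports loss of the Nanog protein. No line without such a transgene was treated, so an effect of Dox itself was not tested. In Oct4cKO L-EPSCs 0 of the 9 genes were called higher and 7 lower, beside 8.53% and 10.8% of all genes tested. In Sox2cKO L-EPSCs 0 were called higher and 6 lower, beside 7.79% and 7.32%. In NanogcKO L-EPSCs 0 were called higher and 0 lower, beside 2.8% and 2.59%. Genes averaging 50 or more had shares of 9.13% and 11.98%, 8.15% and 7.33%, and 2.51% and 2.78% in the same order. The median log2 fold changes of the 9 genes were −2.40, −1.62 and −0.29, against 0.00 for all genes in each line. For NanogcKO, edgeR and DESeq2 also called 0 genes, while limma gave an unadjusted p under 0.05 for 7 of the 9 and an adjusted p under 0.05 for 6 of the 9, so in those 6 it was the size of the change that fell short of the threshold. For Oct4cKO and Sox2cKO, edgeR and DESeq2 called 0 of the 9 higher as well, and at an unadjusted p under 0.05 limma gave 0 higher in Oct4cKO and 2, Acvr2b and Smad7, in Sox2cKO cells. Median centring, 1 of the other scalings tried, moved the median of genes averaging 50 or more in the Oct4cKO comparison by −0.10 (log2). That is small beside the changes of the members called there.

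**Figure D2:**
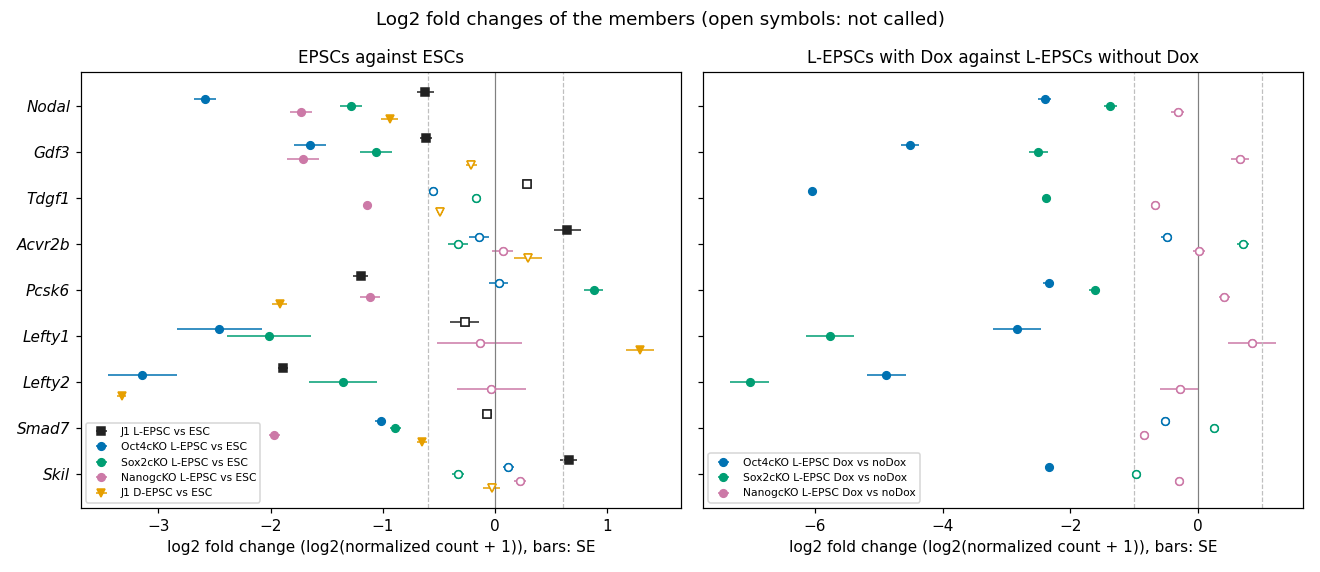
Log2 fold changes of the 9 genes on the log2(normalized count + 1) scale, with the SE as bars, open symbols for genes not called and dashed lines at the thresholds of 0.6 (EPSCs against ESCs, left) and 1 (Dox, right). On the right the Oct4cKO and Sox2cKO symbols of 6 genes lie to the left of −1, whereas all 9 NanogcKO symbols lie between −1 and 1.

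The ligand genes fell with Dox in Oct4cKO and Sox2cKO L-EPSCs. Nodal had 167 and 164 normalized counts in Oct4cKO L-EPSCs without Dox and 32.2 and 28.9 with Dox, a log2 fold change of −2.40 (SE 0.10, adjusted p 4.7e-12). In Sox2cKO L-EPSCs it had 252 and 203 without and 82.5 and 90.8 with Dox, a log2 fold change of −1.37 (SE 0.10, adjusted p 7.7e-09). In NanogcKO L-EPSCs the values were 379 and 399.7 without and 303 and 320.4 with Dox; the libraries did not overlap, but at −0.32 the change was not called. Gdf3 had 199.7 and 155 in Oct4cKO L-EPSCs and 6.91 and 6.66 with Dox, a log2 fold change of −4.51 (SE 0.14, adjusted p 2.2e-13). The Dox libraries held 12 reads of it in all against 398, a 26.2-fold ratio with a 95% counting interval of 14.8 to 51.1. In Sox2cKO L-EPSCs Gdf3 went from 215 and 243 to 33.0 and 47.4, a log2 fold change of −2.50 (SE 0.14, adjusted p 5.8e-10). In NanogcKO L-EPSCs it was higher with Dox in both libraries, 394 and 387 against 244 and 252, and not called at 0.65 (SE 0.14, adjusted p 0.00296). The difference of the Dox effect in Gdf3 was −5.16 (SE 0.20, adjusted p 8.4e-12) for Oct4cKO minus NanogcKO and −3.15 (SE 0.20, adjusted p 5.4e-09) for Sox2cKO minus NanogcKO.

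Tdgf1 also divided the lines. It had 8209 and 8041 normalized counts in Oct4cKO L-EPSCs without Dox and 122 and 122 with Dox, a 66.5-fold lower mean. The log2 fold change was −6.04 (SE 0.03, adjusted p 1.6e-23). In Sox2cKO L-EPSCs it had 7611 and 7784 without and 1457 and 1496 with Dox, a log2 fold change of −2.38 (SE 0.03, adjusted p 6.2e-18). In NanogcKO L-EPSCs it had 3700.3 and 3531 without and 2261 and 2243 with Dox, and the change of −0.68 was not called. The groups did not overlap in any of the lines, and the differences between lines were −3.66 (SE 0.04, adjusted p 8.4e-18) for Oct4cKO minus Sox2cKO and −1.70 (SE 0.04, adjusted p 8.6e-14) for Sox2cKO minus NanogcKO. Per kilobase, Tdgf1 and Acvr2b changed places in Oct4cKO L-EPSCs: without Dox they had 4264 and 4177 and 167 and 183, and with Dox 63.4 and 63.4 and 116 and 132.

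Acvr2b, the receptor gene, was called in none of the lines. It had 293 and 321 normalized counts in Oct4cKO L-EPSCs without Dox and 204 and 232 with Dox, and 288 and 318 and 503 and 486 in Sox2cKO L-EPSCs. The changes of −0.49 and 0.70 were in opposite directions and neither was called, but their difference was −1.20 (SE 0.13, adjusted p 2.5e-06). Pcsk6 had 1666 and 1586 in Oct4cKO L-EPSCs without Dox and 355 and 291 with Dox, a log2 fold change of −2.34 (SE 0.09, adjusted p 1.3e-12). In Sox2cKO L-EPSCs it had 1230.5 and 1182 without and 362 and 424 with Dox, a log2 fold change of −1.62 (SE 0.09, adjusted p 2.2e-10). In NanogcKO L-EPSCs it was 0.41, not called, and the differences from NanogcKO were −2.74 (SE 0.12, adjusted p 3.6e-11) in Oct4cKO and −2.03 (SE 0.12, adjusted p 2.3e-09) in Sox2cKO cells.

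The Lefty genes came down to a few reads or none. Lefty1 had 81.0 and 63.8 normalized counts in Sox2cKO L-EPSCs without Dox and 0 and 0.818 with Dox. That is 139 reads against 1 read over the pairs of libraries, a 176-fold ratio with a 95% counting interval of 31.0 to 6984. Lefty2 had 165 and 182 without and 0 and 0.818 with Dox in the same line, which is 335 reads against 1, a 423-fold ratio with an interval of 75.4 to 16762. The limma log2 fold changes were −5.76 (SE 0.38, adjusted p 2.5e-09) for Lefty1 and −7.01 (SE 0.30, adjusted p 1.6e-11) for Lefty2; fitted values of genes this low depend on the added count and are no bounds. In Oct4cKO L-EPSCs the starting level was lower. Lefty1 had 16.0 and 26.9 without and 1.15 and 3.33 with Dox, 48 reads against 4, a 9.48-fold ratio with an interval of 3.47 to 36.2. Its log2 fold change was −2.84 (SE 0.38, adjusted p 9.0e-06), with an adjusted p of 0.0629 when the 2 groups were fitted alone. Lefty2 had 39.0 and 20.7 without Dox and no read in either library with Dox, at least 8.80-fold lower when 3 reads per library are taken as the floor. The fitted log2 fold change was −4.88 (SE 0.30, adjusted p 9.4e-10).

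In NanogcKO L-EPSCs reads of both Lefty genes were still found with Dox. Lefty1 had 70.3 and 82.6 normalized counts without and 148 and 128 with Dox, higher in both Dox libraries, and was not called at 0.84 (SE 0.38, adjusted p 0.127). Lefty2 had 112 and 127 without and 109 and 87.7 with Dox, lower in both Dox libraries, and was not called at −0.29 (SE 0.30, adjusted p 0.599). The difference of the Dox effect from NanogcKO was −6.60 (SE 0.53, adjusted p 7.2e-08) for Lefty1 and −6.73 (SE 0.43, adjusted p 4.7e-09) for Lefty2 in Sox2cKO cells. For Oct4cKO minus Sox2cKO it was 2.92 for Lefty1 and 2.13 for Lefty2, values that are limited by the floor, since both lines end at or near 0 from different starting levels. For Lefty2 it was 0.42 in edgeR, 1.56 in DESeq2 and 1.01 with a pseudocount of 0.1, none of them called.

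The intracellular inhibitors divided. Skil had 1491 and 1545 normalized counts in Oct4cKO L-EPSCs without Dox and 307 and 291 with Dox, a log2 fold change of −2.34 (SE 0.05, adjusted p 1.8e-15). In Sox2cKO L-EPSCs it had 1400.1 and 1417 without and 728 and 712 with Dox, and at −0.97 (SE 0.05, adjusted p 1.9e-10) it was just under the threshold, which it passed with median centring at −1.05. In NanogcKO L-EPSCs it was −0.31, not called. Smad7 was called in none of the lines: it changed by −0.52 in Oct4cKO, 0.25 in Sox2cKO and −0.85 in NanogcKO cells. In NanogcKO L-EPSCs the Smad7 values were 523 and 532 without and 292 and 293 with Dox, and the difference of the Dox effect, Sox2cKO minus NanogcKO, was 1.10 (SE 0.07, adjusted p 3.5e-09), which median centring brought to 0.999, under the threshold.

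The Dox effect on Nodal differed by −2.08 (SE 0.14, adjusted p 5.0e-09) for Oct4cKO minus NanogcKO, a call kept without any 1 of the libraries. Oct4cKO minus Sox2cKO was −1.03 (SE 0.14, adjusted p 3.1e-05) and Sox2cKO minus NanogcKO was −1.05 (SE 0.14, adjusted p 1.8e-05), both close to 1, the threshold for a difference. Of these, the first was −0.87 without untreated Sox2cKO replicate 2, −0.96 without Dox-treated Sox2cKO replicate 2 and −0.95 without Dox-treated Oct4cKO replicate 2. The second was −0.90 without untreated Sox2cKO replicate 1 and −0.99 without Dox-treated Sox2cKO replicate 1. Over the 3 pairs of lines, the Dox effect differed in 7 of the 9 genes for Oct4cKO minus Sox2cKO, in 7 for Oct4cKO minus NanogcKO and in 7 for Sox2cKO minus NanogcKO, beside 6.81%, 14.8% and 11.3% of all genes tested. The first 7 include Lefty1 and Lefty2, whose values there are limited by the floor of the counts and by their starting levels. For the change from ESCs to L-EPSCs these counts were 2, 3 and 4 of 9, beside 5.36%, 8.58% and 9.16%. The pairs share libraries.

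Of the other pathway genes, 2 of 44 were called higher and 11 lower with Dox in Oct4cKO L-EPSCs, 6 higher and 12 lower in Sox2cKO, and 3 higher and 3 lower in NanogcKO L-EPSCs. Of all genes, 8.53% and 10.8%, 7.79% and 7.32%, and 2.8% and 2.59% were called higher and lower. With the 2 groups alone the count in NanogcKO cells was 1 in place of 6. Medians of these 44 genes were −0.07, 0.01 and −0.04 (log2), near the 0.00 of all genes. Foxh1, which encodes the DNA-binding partner of SMAD2 and SMAD3, had 403 and 370.1 normalized counts in Oct4cKO L-EPSCs without Dox and 11.5 and 13.3 with Dox, a log2 fold change of −4.85 (SE 0.11, adjusted p 3.4e-15). In Sox2cKO L-EPSCs it had 441 and 428 without and 53.6 and 63.0 with Dox, a log2 fold change of −2.88 (SE 0.11, adjusted p 4.2e-12). Ccn2 changed by −4.35 in Oct4cKO and −3.66 in Sox2cKO cells, and Pmepa1 by −2.67 and −1.38. Tgfbi went the other way in all 3 lines, with 1.57 in Oct4cKO, 2.62 in Sox2cKO and 1.25 in NanogcKO cells. The ligand gene Gdf11 rose by 1.91 in Sox2cKO and 1.29 in NanogcKO cells. Inhbb changed by −1.14 in NanogcKO cells and was also called lower in Oct4cKO and Sox2cKO cells.

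Markers of other cell types moved with Dox as well. The 9 trophoblast markers summed to 4503 and 4388 normalized counts in Oct4cKO L-EPSCs without Dox and 29109 and 28815 with Dox, and to 1921 and 1947 and 11866 and 11850.3 in Sox2cKO L-EPSCs. In NanogcKO L-EPSCs the sums were 624 and 592 and 968 and 951. Krt18, the most abundant of them per kilobase in Oct4cKO L-EPSCs with Dox, had 11458 and 11447 normalized counts there. None of the 9 was at 0 in both libraries of any of these groups, and 6, 7 and 1 of the 9 were called higher in Oct4cKO, Sox2cKO and NanogcKO cells. The 9 pluripotency markers summed to 46676 and 45614 without Dox and 7656 and 7791 with Dox in Oct4cKO, 51092 and 50699.9 and 11089.5 and 10544 in Sox2cKO, and 56990.0 and 56625 and 36599 and 35448 in NanogcKO L-EPSCs. Of them 8, 9 and 1 were called lower, and Dppa5a was the most abundant per kilobase. The 8 primitive endoderm markers had sums of 13606 and 13793 without and 6633 and 6495 with Dox in Oct4cKO, 7776 and 7499 and 3311 and 3321 in Sox2cKO, and 1416 and 1412 and 735 and 796 in NanogcKO L-EPSCs, with 3, 3 and 2 called lower. Col4a1 makes up most of the fall of these sums: the other 7 together had 1136 and 1057 without and 1149 and 1031 with Dox in Oct4cKO, 580.1 and 504 and 679.7 and 687 in Sox2cKO, and 318 and 328 and 289.9 and 289 in NanogcKO L-EPSCs. The 6 markers of primitive streak and mesoderm had a higher sum with Dox in Oct4cKO L-EPSCs, 258 and 253 against 240.5 and 234, where Eomes went from 128 and 121 to 249 and 232. Their sums without and with Dox were 202 and 198 and 51.1 and 57.2 in Sox2cKO, and 177 and 196 and 101 and 145 in NanogcKO L-EPSCs. In the 3 lines 2, 3 and 2 of them were called lower, and Mesp1 was at 0 with Dox in Oct4cKO and Sox2cKO cells. Eomes, Mixl1 and Gsc are also on the pathway list, and Eomes is on the trophoblast list too. The part of such cells in the Dox differences of the 9 genes was not tested.

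Genes with patterns most like those of 4 members were looked up over the 9 group means of the tet-off table, by Pearson's r of log2(normalized count + 1) among 11362 genes with a mean of at least 50. For Nodal they were Zfp281 (r = 0.990), Zfp219 (0.986) and Chtf18 (0.985). For Tdgf1 they were Cbs (0.983), Ganab (0.979) and Map4k1 (0.973). Lefty1 had Slc27a2 (0.977), Lefty2 (0.973) and Evc (0.969), and Lefty2 had Camkv (0.984), Nova2 (0.981) and Evc (0.979). The group means come from 3 lines and are not independent, so these values describe likeness only. Among the members themselves, r was 0.957 for Tdgf1 with Skil and 0.953 for Nodal with Gdf3, while Acvr2b had 0.284 with Nodal and −0.02 with Pcsk6.

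Lefty1 and Lefty2 are neighbours and alike in sequence, which bears on how well their reads can be told apart. In NCBIM37, on which the reads were counted, Lefty2 lies on chromosome 1 from 182823239 to 182829234 and Lefty1 from 182865153 to 182868531, both on the plus strand and 35919 bases apart. Stretches of at least 100 bases with at least 95% identity to the other gene cover 598 of the 1620 transcript bases of Lefty1 (36.9%) and 600 of the 2473 of Lefty2 (24.3%). In windows of 50 bases, 281 of 1571 of Lefty1 (17.9%) and 281 of 2424 of Lefty2 (11.6%) are identical in the other. The rest of each transcript holds no such stretch. In J1 D-EPSCs the pair moved in opposite directions, and over the tet-off group means it moved together (r = 0.973). How reads in the alike stretches were assigned was not examined. Tdgf1, on chromosome 9 from 110842114 to 110848662, has 1 further match in the genome that covers 51.7% of its transcript at 96.7% identity, where no gene is annotated, so reads in that stretch could align to both places. In Gdf3 short repeat matches cover 6.12%, and the other 5 members had no such match. None of the 9 genes overlaps another annotated gene.

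Promoter sequences, from 250 bases before to 50 bases after the start, were available for 4 of the 9 genes, Nodal, Tdgf1, Acvr2b and Pcsk6, in the table of RefSeq promoters used here, on GRCm38.p6. That table has no entry for Gdf3, Lefty1, Lefty2, Smad7 and Skil. The 4 were searched on both strands for CAGAC (the SMAD box), AATNNACA (bound by FOXH1), ATGCAAAT (the octamer that Oct4 binds) and ACAAAG (the core bound by SOX factors), and no matches overlapped. Of 32851 promoters of 300 bases, 49.6% hold CAGAC, 12.2% AATNNACA, 1.74% ATGCAAAT and 18.7% ACAAAG. The promoters of Tdgf1, Nodal and Pcsk6 are given because all 3 genes fell with Dox in Oct4cKO and Sox2cKO cells. Tdgf1, the co-receptor gene, fell 66.5-fold with Dox in Oct4cKO L-EPSCs. Nodal is the ligand gene and Pcsk6 the convertase gene, and capitals mark the matches. The Tdgf1 window is chr9:110946109-110946408 on the minus strand and holds CAGAC at base 138, counted from 1 at its 5′ end, with AATNNACA on either side at bases 124 and 150. The Nodal window is chr10:61417722-61418021 on the plus strand and holds ACAAAG once, on the opposite strand at base 9. The Pcsk6 window is chr7:65861886-65862185 on the plus strand and holds none of the 4 motifs.
Tdgf1: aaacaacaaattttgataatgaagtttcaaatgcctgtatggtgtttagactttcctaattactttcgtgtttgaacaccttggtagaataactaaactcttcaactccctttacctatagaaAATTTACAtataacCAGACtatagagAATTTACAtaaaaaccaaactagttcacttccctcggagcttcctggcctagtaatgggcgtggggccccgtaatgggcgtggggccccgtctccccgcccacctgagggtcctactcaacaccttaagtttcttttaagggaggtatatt
Nodal: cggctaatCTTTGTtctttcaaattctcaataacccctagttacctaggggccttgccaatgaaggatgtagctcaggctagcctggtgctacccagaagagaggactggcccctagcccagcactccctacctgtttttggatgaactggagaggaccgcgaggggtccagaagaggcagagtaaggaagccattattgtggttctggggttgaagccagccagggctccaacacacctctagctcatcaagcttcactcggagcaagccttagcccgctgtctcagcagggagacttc
Pcsk6: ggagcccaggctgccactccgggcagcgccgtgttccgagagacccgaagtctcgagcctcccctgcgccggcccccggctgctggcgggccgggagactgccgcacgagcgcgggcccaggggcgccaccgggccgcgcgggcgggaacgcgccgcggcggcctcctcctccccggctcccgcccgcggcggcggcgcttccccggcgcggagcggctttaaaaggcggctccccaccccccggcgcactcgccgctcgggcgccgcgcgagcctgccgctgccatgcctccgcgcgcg
Acvr2b holds CAGAC once and ACAAAG once, and ATGCAAAT is in none of the 4 promoters. A match is a description of letters, and its absence says only that they are not in the window.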

How the data were processed

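RNA-seq signal values were used as deposited: per the labels, the authors trimmed reads with Trim Galore 0.6.4, aligned them to NCBIM37 with STAR 2.7.9a, counted them per gene with HTSeq 0.11.2 (strand setting not stated) and divided by size factors from DESeq2, given in the submitters' notes as version 4.1.1. In all 24 columns 100% of values were whole reads after multiplication by 1 factor (tolerance 0.1 read). Chi-square per gene between replicates was 1.66 to 2.62, where counting noise alone gives about 1. Each table was fitted with limma 3.58.1 (lmFit, eBayes with trend) on log2(normalized count + 1) with all its groups, 21533 genes in J1 cells and 24007 in the tet-off lines, and p-values were adjusted by Benjamini-Hochberg within each comparison; differences between lines were interaction contrasts called beyond 1. The members, Pou5f1, Sox2 and Nanog were named throughout. Other pathway genes were named from the up to 3 called genes with the largest change in each direction among those averaging 50 normalized counts or more; likeness named the 3 genes with the highest r. The members and the lists, of pathway genes and of markers of pluripotent cells, fibroblasts, macrophages, primitive endoderm, trophoblast, and primitive streak and mesoderm, were chosen with earlier results of these data known. Alternatives were edgeR 4.0.16, DESeq2 1.42.0, TMM scaling, median centring, a pseudocount of 0.1, a mean of at least 10, the 2 groups alone, a replicate block, the other fold threshold and leaving out each library. R 4.3.3, Python 3.11.15, NumPy 2.4.6, pandas 2.3.3, SciPy 1.17.1, Matplotlib 3.10.9 and BLAST+ 2.17.0+ were used.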

Additional observations from a re-analysis of the deposited data

Results flagged for a closer look

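The effects listed here differed between tet-off lines by the interaction term of the limma fit, at an adjusted p under 0.05 and a log2 difference beyond 1. For the change from ESCs to L-EPSCs, Oct4cKO minus Sox2cKO was −1.30 for Nodal and −1.79 for Lefty2, the latter not called with a pseudocount of 0.1 (−1.82, adjusted p 0.228). Oct4cKO minus NanogcKO was 1.15 for Pcsk6, −2.32 for Lefty1 (not called with that pseudocount, adjusted p 0.119) and −3.11 for Lefty2. Sox2cKO minus NanogcKO was 1.08 for Smad7, 1.99 for Pcsk6, −1.87 for Lefty1 and −1.32 for Lefty2, where neither Lefty value was called with that pseudocount (adjusted p 0.226 and 0.379).

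For the effect of Dox in L-EPSCs, Oct4cKO minus Sox2cKO was −1.03 for Nodal, −2.01 for Gdf3, −3.66 for Tdgf1, −1.20 for Acvr2b and −1.37 for Skil. It was positive for the Lefty genes, 2.92 for Lefty1 and 2.13 for Lefty2, where the floor of the counts limits the value. For Lefty2 it was not called in edgeR (0.42), in DESeq2 (1.56) or with a pseudocount of 0.1 (1.01). Oct4cKO minus NanogcKO was −2.08 for Nodal, −5.16 for Gdf3, −5.36 for Tdgf1, −2.74 for Pcsk6, −3.68 for Lefty1, −4.59 for Lefty2 and −2.03 for Skil. Sox2cKO minus NanogcKO was −1.05 for Nodal, −3.15 for Gdf3, −1.70 for Tdgf1, −2.03 for Pcsk6, −6.60 for Lefty1, −6.73 for Lefty2 and 1.10 for Smad7. The cause of these differences was not tested.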

How the results depend on the processing

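No called change of the members, of Pou5f1, Sox2 or Nanog, and no called difference of the members between lines, changed sign under any alternative run; other pathway genes and markers were not followed 1 by 1. Of 1053 alternative values of the members' log2 fold changes, 1019 kept their side of the threshold, 25 lost the call and 9 gained it, and 11, all of changes not called, changed sign. Of 756 values of differences between lines, 730 kept their side, 26 lost the call and 1, not called, changed sign. With the other fold threshold (1 in place of 0.6, and 0.6 in place of 1 for Dox), members called numbered 3 in J1 D-EPSCs against ESCs, 2 in J1 L-EPSCs against ESCs, 2 in L-EPSCs against D-EPSCs and 3 with Dox in NanogcKO cells. All genes called then numbered 2899 in J1 L-EPSCs against ESCs, 1836 in L-EPSCs against D-EPSCs, 4466, 2990 and 4196 in Oct4cKO, Sox2cKO and NanogcKO L-EPSCs against ESCs, and 5568 and 2386 with Dox in Sox2cKO and NanogcKO cells. The other pathway genes called were 7 in L-EPSCs against D-EPSCs and 9 in NanogcKO L-EPSCs against ESCs. These follow from the threshold itself. With the 2 groups alone, pathway genes called were 7 in Sox2cKO and 11 in NanogcKO L-EPSCs against ESCs and 1 with Dox in NanogcKO cells, where all genes called were 479; fewer samples enter that fit. Leaving out each library in turn gave 3 to 6 members in J1 L-EPSCs against ESCs, and in L-EPSCs against D-EPSCs 1913 to 2104 genes and 6 to 9 pathway genes; the lone library of a group is then assumed to vary like the others. With a replicate block, members called were 5, 6 and 5 in the J1 comparisons, 5, 6 and 5 in L-EPSCs against ESCs and 7, 6 and 0 with Dox, and residuals of same-numbered replicates correlated between −0.0676 and 0.0232 across genes, which are not independent replicates. Depth limits the Lefty genes with Dox in Oct4cKO and Sox2cKO cells, where 0 to 4 reads remained.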
